A study of Caenorhabditis elegans with 4 samples.

Results

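The transcripts examined here were those of expressed pseudogenes in Caenorhabditis elegans larvae of the L3 stage. A pseudogene was taken as a gene with that biotype in the Ensembl 115 annotation, matched by WormBase identifier, and as expressed where the raw counts of the 4 libraries summed to at least 20. The rule kept 586 of the 2074 pseudogenes in the count tables, which held 46748 genes in all. Of the others, 485 had no count in any library and 1003 had 1 to 19 counts. The samples were whole larvae of the met-2 set-25 double mutant (strain GW638, met-2(n4256) set-25(n5021)) and of the wild type (Bristol N2), 2 libraries each. Worms of both genotypes were raised on NGM plates kept at 20°C, and poly(A) RNA was sequenced. The mutant libraries, rWQS029 and rWQS045, and the wild type libraries, rWQS019 and rWQS042, carry here the identifiers of their count columns. The comparison asks which pseudogenes change in RNA level when the enzymes of H3 lysine 9 methylation are missing. In whole animals, fewer cells of a type and less RNA per cell cannot be told apart.

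A pseudogene is a gene copy annotated as no longer giving its full product, a protein or, under a tRNA sequence name, a tRNA. In C. elegans many of them belong to large gene families, such as chemoreceptors and F-box genes, that lie towards the chromosome ends. The methyltransferases MET-2 and SET-25 together place nearly all methylation on lysine 9 of histone H3, a mark of silent chromatin that is dense on the distal arms of the autosomes. Some genes named as pseudogenes have well-studied relatives in small RNA pathways, including the Piwi-type Argonaute and the Dicer-related helicases.

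The libraries held between 22849521 and 56879896 counts. The mutated genes still had counts in met-2 set-25. The counts are sums over whole genes, and which part of a gene each allele removes is not given in the sources used here. met-2 was at 31.8 and 35.3 CPM (counts per 1e6 counts, scaled with edgeR's TMM factors) in met-2 set-25, against 62 and 55.9 CPM in wild type. set-25 was at 11.5 and 11.6 CPM in met-2 set-25 and at 11.4 and 17.6 CPM in wild type. The counts therefore check the genotype labels only in part. Summed CPM of 25 germline genes was 1581 and 3023 in met-2 set-25 and 828 and 850.3 in wild type, and 11 of these genes rose by DESeq2. The 14 sperm genes listed, of which 3 had at least 20 counts, summed to between 0.718 and 1.78 CPM in every library, and msp-10, msp-19, msp-78 and msp-113 were at 0.

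Among the expressed pseudogenes, changes called by DESeq2 ran mostly upward in the mutant. By DESeq2, 49 pseudogenes rose and 4 fell (Benjamini-Hochberg adjusted p under 0.05), while 475 of the 528 given an adjusted p did not pass. These were 9.28% higher and 0.758% lower of those tested, where the background over all 16562 genes given an adjusted p was 2.49% higher and 0.821% lower. Protein-coding genes with at least 20 counts had 350 of 14776 higher (2.37%) and 129 lower (0.873%). The edgeR quasi-likelihood test, which allows for the uncertainty of the spread from 2 libraries per genotype, called 0 of the 469 pseudogenes that passed its filter, where the background was 0% of 15978 genes. Limma voom also called 0 pseudogenes, and the edgeR likelihood ratio test called 63. At an unadjusted edgeR p under 0.05, 106 pseudogenes were higher and 22 lower, beside 6.31% higher and 3.96% lower of all genes. The edgeR adjusted p of the 53 pseudogenes that DESeq2 called ranged between 0.0786 and 0.317, with a median of 0.152. "Rose" and "fell" below therefore refer to the DESeq2 test.

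Many of the calls were lost when 1 library was left out, a fit in which 1 genotype has a single library. Of the 49 that rose, 37 were called without rWQS029, 30 without rWQS045, 16 without rWQS019 and 18 without rWQS042, and 16 were called in all 4 of these fits. All 16 were among the 20 with the smallest DESeq2 adjusted p, which are described one by one below, and each of the other 29 was lost in at least 1 fit. The fold changes of lost calls stayed above 0 in every one of these fits. Their median log2 fold change was 2.14 without rWQS029, 1.83 without rWQS045, 2.07 without rWQS019 and 1.89 without rWQS042, where the same members had medians of 2.12, 2, 2.04 and 2.04 with all libraries. In each member that rose, CPM of both mutant libraries was above both wild type libraries. A fold change that stays above 0 therefore follows from the choice of members and is no separate support for the calls. Of the 4 that fell, 1 was called in all 4 fits.

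Without any filter on the expressed pseudogenes, the median edgeR log2 fold change was 0.33, with quartiles of -0.35 and 1.21. For protein-coding genes with at least 20 counts the median was 0.04, with quartiles of -0.32 and 0.39. Of the 586 pseudogenes, 361 were above 0 (61.6%), beside 53.2% of all genes and 53.5% of protein-coding genes with at least 20 counts. The median was also 0.33 when the 3 pseudogenes that had no wild type count were given a floor of 3 wild type counts. CPM values of both mutant libraries were above both wild type libraries for 229 pseudogenes (39.1%), and below them for 100 (17.1%). Over all 17074 genes with at least 20 counts these shares were 22.1% and 21%. Some members reach the minimum through 1 genotype alone, which ties their fold change to the rule. Among those called by DESeq2, lips-14, fbxa-200, srx-70, C07D8.2, F47B7.6, dct-10, clec-23 and F19G12.t1 did so through met-2 set-25. Through wild type, srbc-15, K09F6.4 and W03B1.1 did so. Over the 385 members with at least 20 counts in each genotype, a limit set after the data were seen, the median was 0.35, with quartiles of -0.19 and 1.06, and 247 were above 0. For the 13785 protein-coding genes that met the same limit the median was 0.04, with quartiles of -0.31 and 0.36. Above 0 were 64.2% of these members and 53.3% of these protein-coding genes. Under this limit, 41 of the 385 members rose by DESeq2 (10.6%) and 1 fell (0.26%). Of the protein-coding genes, 285 rose (2.07%) and 117 fell (0.849%).

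**Figure D1:**
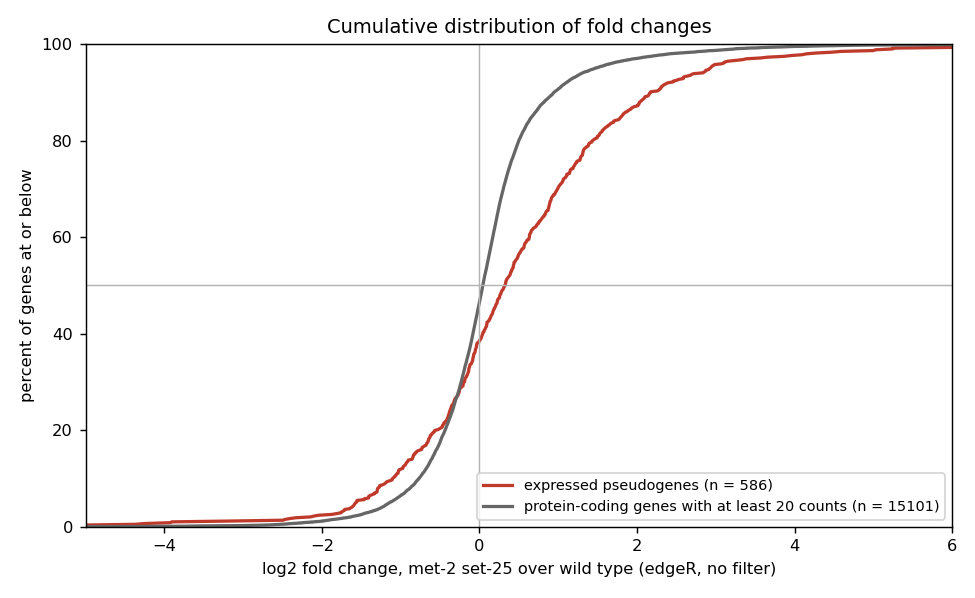
The percent of genes (y axis) at or below each edgeR log2 fold change of met-2 set-25 over wild type (x axis, no filter on low counts, drawn between -5 and 6), for 586 expressed pseudogenes in red and 15101 protein-coding genes in grey. The red curve crosses 50% at 0.33 and the grey curve at 0.04.

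The members were chosen on summed counts, and most were low. The summed count had a lowest value of 20, a median of 137 and a highest value of 221911, where protein-coding genes over the same minimum had a median of 2322. Just inside the minimum, srh-175 had 6 and 5 counts in met-2 set-25 and 4 and 5 in wild type, and srh-267 had 1 and 2 against 5 and 12. Just outside it, srg-18 had 6 and 1 counts in met-2 set-25 and 5 and 7 in wild type, and srg-49 had 6 and 1 against 7 and 5. All of these carry chemoreceptor family names. The minimum of 20 was reached in each genotype alone by 385 members, in met-2 set-25 alone by 68 and in wild type alone by 46, and only in the sum of both by 87. With members ranked by summed count and split into 4 sets of nearly equal size, DESeq2 called higher 0 of 91 tested in the lowest set (6 at an unadjusted edgeR p under 0.05), 1 of 145 in the second, 18 of 145 in the third and 30 of 147 in the highest.

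The most strongly called member was puf-10 on chromosome I (212256 to 215491, WBcel235), named for the Pumilio family of RNA-binding translational repressors. It had 14.8 and 14.5 CPM in met-2 set-25, against 1 and 0.911 CPM in wild type. The genotypes were far apart, and the log2 fold change was 3.96 with a standard error of 0.42 (DESeq2 adjusted p = 5e-18, edgeR adjusted p = 0.0786). At a distance of 537 bases lies snpc-3.3 (216028 to 217002), named for a subunit family of SNAPc, a complex that starts transcription of small nuclear RNAs. It had 10.1 and 9.57 CPM in met-2 set-25, against 0.653 and 0.701 CPM in wild type. Its log2 fold change was 3.87 with a standard error of 0.45 (DESeq2 adjusted p = 1.24e-14, edgeR adjusted p = 0.0792). Both were called with any library left out. Farther along, Y48G1BL.5, also a pseudogene, was at 1.34 CPM in met-2 set-25 and 0.458 CPM in wild type, which did not pass (DESeq2 adjusted p = 0.385). The flanking coding gene atm-1, the checkpoint kinase, had 42.8 CPM in met-2 set-25 and 33.7 CPM in wild type (DESeq2 adjusted p = 0.944).

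Several members were close to absent in wild type. lips-14 (chromosome II, 1484094 to 1485764), of the lipase-related genes, had 279 and 414 counts in met-2 set-25, against 0 and 5 in wild type. Its DESeq2 log2 fold change was 7.13 with a standard error of 0.86 (adjusted p = 5.06e-14, edgeR adjusted p = 0.0792). The related lips-16 on the same chromosome had 25 and 185 counts in met-2 set-25 and 31 and 148 in wild type, so its genotypes overlapped. fbxa-200 (chromosome II, 904425 to 906039), an F-box family member, had 93 and 64 counts in met-2 set-25 and 0 in both wild type libraries. Set against a floor of 3 counts over the summed wild type libraries (0.0375 CPM), it was 49.9-fold higher in met-2 set-25 (DESeq2 adjusted p = 1.64e-05, edgeR adjusted p = 0.129). This ratio leaves out counting error in the mutant and variation between libraries. srx-70 (chromosome V, 3933960 to 3934950), named for a chemoreceptor family, had 76 and 89 counts in met-2 set-25, against 0 and 2 in wild type. The ratio of summed counts, scaled for library size, was 78.6 with an exact 95% counting interval between 21.4 and 654.4 (DESeq2 adjusted p = 3.51e-05, edgeR adjusted p = 0.0792). This interval covers counting error only.

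The pseudogenes C43D7.3 (14 and 18 counts in met-2 set-25) and ZK381.63 (19 and 10 counts) were also at 0 in both wild type libraries. By the same floor they were 10.2-fold and 9.21-fold higher in met-2 set-25, and neither passed (DESeq2 adjusted p = 0.0513 and 0.0777). These ratios leave out counting error in the mutant and variation between libraries. No member was at 0 in both mutant libraries (0 of 586).

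Among the 20 members with the smallest DESeq2 adjusted p, Y38H8A.8, Y71A12B.19 and dct-10 on autosomes also had low values in wild type. Y38H8A.8 (chromosome IV, 13456976 to 13458841) had 12.7 and 9.19 CPM in met-2 set-25, against 0.566 and 0.385 CPM in wild type. Its log2 fold change was 4.58 with a standard error of 0.52 (DESeq2 adjusted p = 1.27e-15, edgeR adjusted p = 0.0792). It lies 161 bases from Y38H8A.7, which DESeq2 also called. dct-10 (chromosome V, 20506503 to 20509510), of a gene class named for germline tumour effects under the transcription factor DAF-16, had 2.26 and 3.72 CPM in met-2 set-25, against 0.087 and 0.158 CPM in wild type (log2 fold change 4.53, DESeq2 adjusted p = 8.35e-07, edgeR adjusted p = 0.101). Y71A12B.19 (chromosome I, 13972617 to 13973412) had 3.96 and 3.27 CPM in met-2 set-25, against 0.261 and 0.333 CPM in wild type (log2 fold change 3.58, DESeq2 adjusted p = 3.33e-07, edgeR adjusted p = 0.0915). These 3 kept their calls with any library left out, and, as in each member that rose, their genotypes did not overlap.

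On the X chromosome, 9 of 48 tested pseudogenes rose by DESeq2 (18.8%) and 0 fell, with 1 lower at an unadjusted edgeR p under 0.05. The protein-coding genes of X had 18 of 2230 higher (0.807%) and 17 lower. The median edgeR log2 fold change was 0.53 for the X pseudogenes and -0.12 for the X protein-coding genes. C07D8.2 (7362082 to 7363663) had 3.53 and 3.27 CPM in met-2 set-25, against 0.087 and 0.0876 CPM in wild type (log2 fold change 5.29, DESeq2 adjusted p = 2.02e-09, edgeR adjusted p = 0.0792). F47B7.6 (3769729 to 3770643) had 2.21 and 3.54 CPM in met-2 set-25, against 0.0435 and 0.0876 CPM in wild type (log2 fold change 5.33, DESeq2 adjusted p = 2.72e-07, edgeR adjusted p = 0.0843). Their wild type values rest on 1 to 5 counts per library, so the fold changes are loosely set.

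At the left end of X, 4 of the 13 members in a stretch between Y73B3A.21 (from 34798) and Y73B3B.5 (to 207723) rose. Of the others in it, 7 did not pass and 2 were not given an adjusted p. The stretch was set after the calls were known, and it starts and ends at members that rose. Nearer the chromosome end, CE7X_3.2 (log2 fold change 0.81, DESeq2 adjusted p = 0.597) and Y35H6.3 (1.16, DESeq2 adjusted p = 0.439) did not pass. Y73B3A.13 had 6.64 and 5.16 CPM in met-2 set-25, against 0.218 and 0.403 CPM in wild type (log2 fold change 4.18, DESeq2 adjusted p = 3.24e-10, edgeR adjusted p = 0.0857). Y73B3A.18 had 49.4 and 47.4 CPM in met-2 set-25, against 9.27 and 12.9 CPM in wild type (log2 fold change 2.13, DESeq2 adjusted p = 4.36e-06, edgeR adjusted p = 0.108). The call of Y73B3A.18, which overlaps the noncoding Y73B3A.23 on the same strand, was lost without rWQS019 (DESeq2 adjusted p = 0.263). Y73B3A.21 had 2.28 and 2.29 CPM in met-2 set-25 and 0.696 and 0.561 CPM in wild type (DESeq2 adjusted p = 0.0302, edgeR adjusted p = 0.222). Y73B3B.5 had 13.7 and 12.9 CPM against 2.96 and 4.82 CPM (DESeq2 adjusted p = 0.0044, edgeR adjusted p = 0.212). The call of Y73B3A.21 was lost with any library left out, and that of Y73B3B.5 without rWQS019 and without rWQS042. In all 4, as in each member that rose, both mutant libraries were above both wild type libraries. The 7 of the stretch that did not pass had log2 fold changes between -1.71 (Y73B3A.17) and 1.5 (Y73B3A.3, DESeq2 adjusted p = 0.0531), 1 of them below 0.

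Of the 5 members with a tRNA sequence name, 4 lie on X. ZK380.t2, an annotated tRNA pseudogene of 73 bases (1643850 to 1643922), had 177 and 250 counts in met-2 set-25, against 8 and 38 in wild type (log2 fold change 3.27, DESeq2 adjusted p = 2.35e-06, edgeR adjusted p = 0.128). F19G12.t1 had 37 and 39 counts in met-2 set-25, against 3 and 7 in wild type (DESeq2 adjusted p = 0.0432). The other 3 did not pass, with log2 fold changes between 0.82 and 4.35. Whether these reads came from the short pseudogenes or from longer transcripts across them was not tested.

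**Figure D2:**
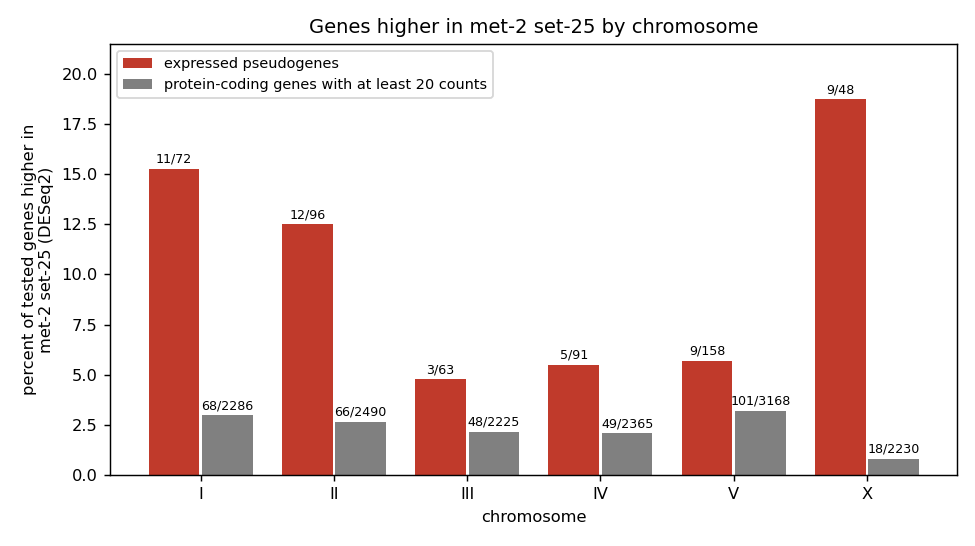
Percent of tested genes that rose in met-2 set-25 by DESeq2 (y axis, adjusted p under 0.05) on each chromosome (x axis), for expressed pseudogenes (red) and protein-coding genes with at least 20 counts (grey), with the number that rose over the number tested above each bar. The pseudogene bar is the taller on every chromosome, and on X it stands at 18.8% beside 0.807%.

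Among autosomal members, a larger share rose on arms than in centres. Arms were defined as the parts outside the middle 50% of each autosome. On arms 31 of 308 tested pseudogenes rose (10.1%), and in the centres 9 of 172 did (5.23%). Protein-coding genes had 204 of 4952 higher on arms (4.12%) and 128 of 7582 in the centres (1.69%). By chromosome, 11 of 72 pseudogenes rose on I, 12 of 96 on II, 3 of 63 on III, 5 of 91 on IV and 9 of 158 on V. The difference between chromosomes or between arms and centres was not tested.

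Of the 49 members that rose, the largest difference in CPM was at C06A1.4 in the centre of chromosome II (10574842 to 10578193). It had 88.2 and 96.3 CPM in met-2 set-25, against 10.5 and 15 CPM in wild type (log2 fold change 2.87, standard error 0.39, DESeq2 adjusted p = 8.06e-11, edgeR adjusted p = 0.0792). C06A1.4 lies 2 bases from C06A1.12, which DESeq2 also called, and whether they share transcripts was not tested. W06A11.4 on the same chromosome had 9.1 and 9.26 CPM in met-2 set-25, against 2.26 and 2.08 CPM in wild type (log2 fold change 2.1, DESeq2 adjusted p = 2.28e-05, edgeR adjusted p = 0.131). Without rWQS019 its DESeq2 adjusted p was 0.24, and without rWQS042 it was 0.247, so that either loss ended the call, while its log2 fold change was 2.13 and 2.06 in these fits. Y54H5A.5 on chromosome III had 4.49 and 4.06 CPM in met-2 set-25, against 0.783 and 0.666 CPM in wild type (log2 fold change 2.59, DESeq2 adjusted p = 2.88e-05, edgeR adjusted p = 0.129), and was likewise lost without rWQS019 (0.118) and without rWQS042 (0.227), at log2 fold changes of 2.67 and 2.48. Y54H5A.5 lies within oxy-4 on the opposite strand, and the library kit does not mark strand. oxy-4 itself was at 21.9 and 25.8 CPM in met-2 set-25 and at 18.5 and 20.7 CPM in wild type. Whether reads from the oxy-4 region entered the Y54H5A.5 counts was not tested.

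**Figure D3:**
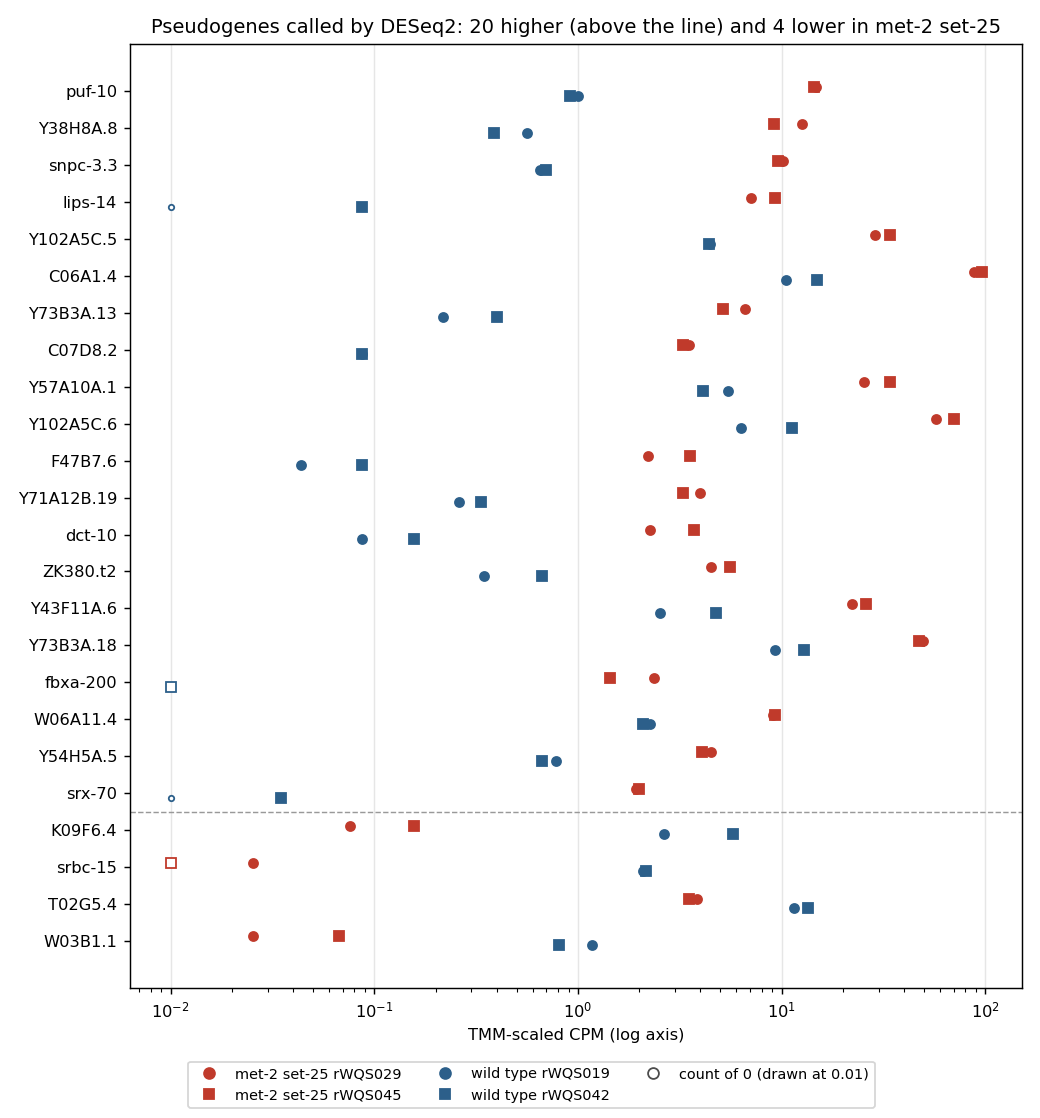
TMM-scaled CPM (x axis, log scale) in each library for the 20 pseudogenes that rose in met-2 set-25 with the smallest DESeq2 adjusted p and, under the dashed line, the 4 that fell, with met-2 set-25 libraries in red, wild type libraries in blue and open symbols at 0.01 for a count of 0 (both wild type libraries for fbxa-200). Red and blue points do not overlap in any row, as is the case for every member that DESeq2 called.

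Called pseudogenes often lay near another gene called by DESeq2, whether pseudogene or not. The median distance to the nearest other gene called by DESeq2 was 4.48 kb for the 53 called pseudogenes, and 27 of them (50.9%) had one within 10 kb. For the 544 called genes with a position the median was 34.3 kb and 203 (37.3%) had one within 10 kb. For the 475 pseudogenes that were tested and not called the median was 51.2 kb and 100 (21.1%) had one. In 7 loci, chosen after the calls were known as runs of called pseudogenes at most 10 kb apart, 19 of the 53 called pseudogenes were found. Whether members of 1 locus share transcripts was not tested, and they are not independent of each other.

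The longest of these loci, on chromosome II (12131530 to 12162661), held 5 pseudogenes that rose. Y43F11A.6 had 22.3 and 25.9 CPM in met-2 set-25, against 2.52 and 4.77 CPM in wild type (log2 fold change 2.72, DESeq2 adjusted p = 2.76e-06, edgeR adjusted p = 0.13), a call that was lost without rWQS019 (DESeq2 adjusted p = 0.0718). Y57A10A.1, a model of 19 exons, had 25.5 and 34.3 CPM in met-2 set-25, against 5.44 and 4.1 CPM in wild type (log2 fold change 2.67, DESeq2 adjusted p = 3.33e-08, edgeR adjusted p = 0.0915). Y57A10A.3, Y57A10A.6 and Y57A10A.7 had log2 fold changes between 1.8 and 2.01. The neighbouring coding genes set-24, which encodes a SET domain protein, Y57A10A.2 and Y57A10A.5 also rose, with log2 fold changes of 2.17, 3.05 and 2.18. All 10 genes of this locus and its 5 kb flanks with at least 20 counts were above 0.

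On chromosome V (16924985 to 16930063), Y102A5C.35, Y102A5C.5 and Y102A5C.6 rose. Y102A5C.35 had 80 and 48 counts in met-2 set-25, against 3 and 18 in wild type (log2 fold change 2.72, DESeq2 adjusted p = 0.0364, edgeR adjusted p = 0.271). Its call was lost with any library left out. Y102A5C.5 had 28.9 and 34.2 CPM in met-2 set-25, against 4.44 and 4.42 CPM in wild type (log2 fold change 2.84, standard error 0.37, DESeq2 adjusted p = 5.33e-12, edgeR adjusted p = 0.0792). Y102A5C.6 had 57.3 and 70.3 CPM in met-2 set-25, against 6.31 and 11.2 CPM in wild type (log2 fold change 2.87, standard error 0.46, DESeq2 adjusted p = 1.13e-07, edgeR adjusted p = 0.108). Both were called with any library left out. The coding gene between the members, Y102A5C.36, had 28.1 CPM in met-2 set-25 and 1.69 CPM in wild type (log2 fold change 4.05, DESeq2 adjusted p = 8.59e-21). Further on, the pseudogenes clec-237 (4 and 149 counts in met-2 set-25, 3 and 8 in wild type) and Y102A5C.43 (6 and 140, against 7 and 15) were high in rWQS045 alone and did not pass.

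On chromosome I (13961011 to 13973412), Y71A12B.13, Y71A12B.14 and Y71A12B.19 rose with log2 fold changes between 2.16 and 3.58, while the coding neighbour Y71A12B.10 was at -0.52 and did not pass. On chromosome V, B0391.10 shares exon sequence with F28F8.7 on the opposite strand. B0391.10 was at 14.4 CPM in met-2 set-25 and 3.52 CPM in wild type, and F28F8.7 at 62.1 CPM in met-2 set-25 and 3.67 CPM in wild type. Reads in the exon sequence that the pair shares cannot be told apart without strand. The adjacent B0391.8, which overlaps no gene, was at 10.2 and 12 CPM in met-2 set-25 and at 3.31 and 3.08 CPM in wild type. The other loci, Y47H9C.14 with R09B3.6 on chromosome I and Y46G5A.43 with Y46G5A.6 on chromosome II, had log2 fold changes between 1.31 and 2.14. At each locus other than that of Y102A5C.5, at least 1 coding gene in the locus or its flanks did not pass.

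**Figure D4:**
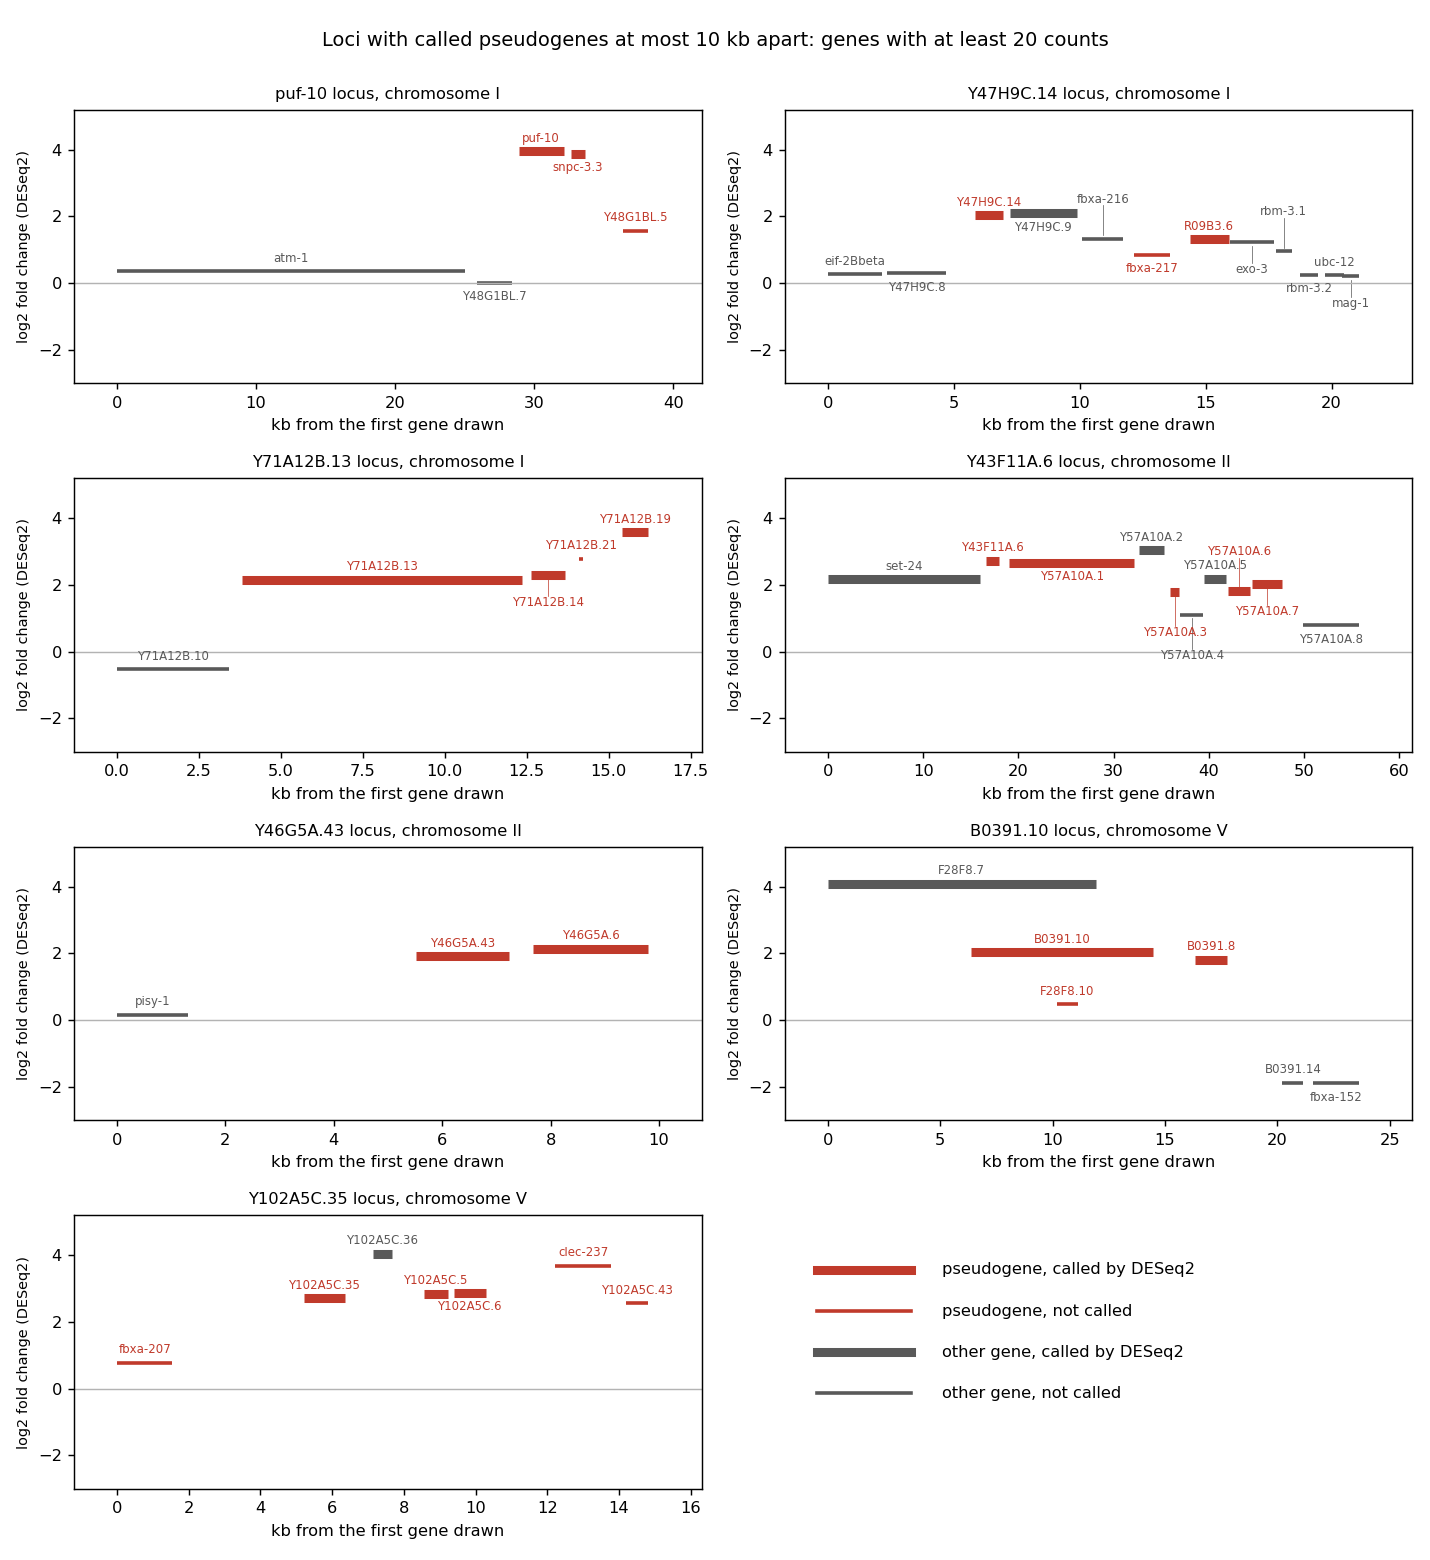
DESeq2 log2 fold change of met-2 set-25 over wild type (y axis) for genes with at least 20 counts in 7 loci and their 5 kb flanks, drawn by position in kb from the first gene (x axis), with pseudogenes in red, other genes in grey and called genes as thick bars. Called pseudogenes sit between 1.31 and 3.96, and several lie beside grey thin bars near 0, as at atm-1 and pisy-1.

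By DESeq2, 4 pseudogenes fell in met-2 set-25. srbc-15 (chromosome V, 2345676 to 2348123), named for a chemoreceptor family, had 1 and 0 counts in met-2 set-25, against 48 and 124 in wild type. The ratio of summed counts, wild type over met-2 set-25, was 180.5 with an exact 95% counting interval between 32 and 7172 (DESeq2 adjusted p = 0.000162, edgeR adjusted p = 0.0792), and the call held with any library left out. K09F6.4 (chromosome II, 2262197 to 2265665) had 0.0761 and 0.157 CPM in met-2 set-25, against 2.65 and 5.8 CPM in wild type (log2 fold change -5.16, DESeq2 adjusted p = 2.65e-08, edgeR adjusted p = 0.116), and was lost without rWQS042 (DESeq2 adjusted p = 0.0539). T02G5.4 (chromosome II, 7082102 to 7084083) had 3.83 and 3.5 CPM in met-2 set-25, against 11.5 and 13.4 CPM in wild type (log2 fold change -1.76, DESeq2 adjusted p = 0.000436, edgeR adjusted p = 0.155). It was lost without rWQS019 (0.448) and without rWQS042 (0.561), at log2 fold changes of -1.89 and -1.62.

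W03B1.1 (chromosome IV, 4334253 to 4334988) had 1 and 3 counts in met-2 set-25, against 27 and 46 in wild type (log2 fold change -4.37, DESeq2 adjusted p = 0.00421, edgeR adjusted p = 0.128). It shares exon sequence with the coding gene W03B1.3 on the opposite strand, which had 0 and 15 counts in met-2 set-25 and 50 and 130 in wild type and also fell (DESeq2 adjusted p = 0.0487). The call of W03B1.1 was lost with any library left out, at adjusted p values of 0.0697, 0.0699, 0.761 and 0.324 without rWQS029, rWQS045, rWQS019 and rWQS042.

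The 5 most abundant members passed neither test. F07H5.5 on chromosome II (8787770 to 8789716) alone held 35.5% of all 624273 counts on expressed pseudogenes. It was at 740 CPM per kb of exon in met-2 set-25 and 997 CPM per kb in wild type, with a log2 fold change of -0.42 (DESeq2 adjusted p = 0.831). Its neighbours F07H5.3 and F07H5.4, within 5 kb, were at 185 and 123 CPM per kb in met-2 set-25 and 221 and 188 CPM per kb in wild type. ZC513.7 on chromosome V was at 591 CPM per kb in met-2 set-25 and 455 CPM per kb in wild type (log2 fold change 0.39, DESeq2 adjusted p = 0.881). It shares exon sequence with algn-12 on the opposite strand, so its reads may belong to either gene. drh-2, named as a Dicer-related helicase, was at 51 CPM per kb in met-2 set-25 and 39.4 CPM per kb in wild type (log2 fold change 0.38, DESeq2 adjusted p = 0.863).

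The share of library counts on expressed pseudogenes was 0.433% and 0.364% in met-2 set-25 and 0.378% and 0.356% in wild type, so the genotypes overlapped. The difference of 0.031 percentage points gave p = 0.667 in a two-sided exact permutation test over libraries, which cannot go below 0.333 with 2 libraries per genotype. Without F07H5.5 the shares were 0.297% and 0.264% in met-2 set-25 and 0.211% and 0.206% in wild type. These no longer overlapped, with the smallest p the design allows (exact permutation p = 0.333).

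Members named for known genes were set beside coding genes of similar symbol, pairs chosen after values were seen. Reads of near-identical copies may have been assigned to either copy, so these values are uncertain. prg-2 is a close relative of prg-1, the Piwi Argonaute of the germline. prg-2 had 81.3 and 171 CPM in met-2 set-25 and 48.3 and 54.1 CPM in wild type, and did not pass (log2 fold change 1.31, DESeq2 adjusted p = 0.161). It was called without rWQS029 (DESeq2 adjusted p = 0.000107). prg-1 had 303.6 and 626.6 CPM in met-2 set-25, against 57.5 and 62.8 CPM in wild type, and rose (log2 fold change 2.97, DESeq2 adjusted p = 2.97e-07, edgeR adjusted p = 0.121). Both copies were higher in rWQS045 than in rWQS029, as the germline gene list was.

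wago-2, of the worm-specific Argonautes that bind small RNAs, had 13.1 and 27 CPM in met-2 set-25 and 13.1 and 13.3 CPM in wild type (DESeq2 adjusted p = 0.839). Its coding relatives wago-1 and wago-4 had 114.6 and 300.5 CPM and 103.1 and 249.6 CPM in met-2 set-25, against 71.9 and 78.3 CPM and 6.22 and 12.7 CPM in wild type, and of the pair wago-4 rose (DESeq2 adjusted p = 1.81e-09). The cytochrome P450 pseudogene cyp-31A1 was at 39.1 and 37 CPM in met-2 set-25 and 37.1 and 42.8 CPM in wild type, with overlapping genotypes. Its coding relatives cyp-31A2 and cyp-31A3 were far lower per kb of exon, at 2.33 and 4.87 CPM per kb in met-2 set-25 and 1.13 and 1.63 CPM per kb in wild type, where cyp-31A1 was at 27.4 CPM per kb in met-2 set-25 and 28.8 CPM per kb in wild type. hsf-2, named for heat shock factors, had 10 and 35 counts in met-2 set-25 and 2 and 9 in wild type and did not pass.

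For snpc-3.3 the coding genes of symbol snpc-3, and for puf-10 the coding genes puf-3 and puf-11, had smaller fold changes. The differences themselves were not tested. The coding gene snpc-1.2, of another snpc symbol, had a larger log2 fold change than snpc-3.3, at 4.19 (DESeq2 adjusted p = 6.63e-28, edgeR adjusted p = 0.0597). The relatives snpc-3.1, snpc-3.2 and snpc-3.4 had log2 fold changes of 0.80, 1.52 and 0.54, and none passed. At 11.3 CPM per kb of exon in met-2 set-25, snpc-3.3 was higher than snpc-3.4 at 8.95 CPM per kb. In wild type it was lower, at 0.778 CPM per kb beside 6.23 CPM per kb. Likewise puf-10 was at 9.97 CPM per kb in met-2 set-25 and 0.651 CPM per kb in wild type. Its coding relative puf-11 was at 4.44 CPM per kb in met-2 set-25 and 2.33 CPM per kb in wild type and did not pass.

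By family name, 161 members carried a family or gene symbol and 425 a sequence name only. Of those tested, 7 of 136 with a symbol rose, against 42 of 392 with a sequence name only. The largest family was fbxa, whose F-box proteins are substrate adaptors of ubiquitin ligases. It had 33 pseudogenes, of which 1 of 32 tested rose (fbxa-200), beside 9 of 122 coding fbxa genes. Among C-type lectins, a family of carbohydrate-binding proteins, 1 of 6 tested clec pseudogenes rose (clec-23) beside 7 of 131 coding genes. clec-23 had 98 and 84 counts in met-2 set-25, against 1 and 17 in wild type (DESeq2 adjusted p = 0.00269). Of 6 bath pseudogenes, a family with BTB and MATH domains, 0 rose beside 7 of 31 coding genes. Of 8 nhr pseudogenes, named for nuclear hormone receptors, 0 rose beside 1 of 220 coding genes. Among chemoreceptor families, 1 of 3 tested srx pseudogenes rose (srx-70) beside 0 of 22 coding srx genes, and srbc-15 fell. The chemoreceptor families srh, sri, srw and srz had 7, 3, 5 and 5 members, of which 4, 2, 3 and 0 were given an adjusted p. Of these pseudogenes, 0 passed in either direction by DESeq2. Of the coding genes tested, 0 of 25 srh, 1 of 18 sri, 1 of 9 srw and 0 of 4 srz rose, and 1 srw gene fell. In these families, where 0 pseudogenes passed, edgeR gave an unadjusted p under 0.05 for 1 bath and 1 srw member, both lower in met-2 set-25.

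Most called members overlapped no other annotated gene. Of the 434 members that overlap no annotated gene on either strand, 41 of 388 tested rose (10.6%) and 3 fell. Of the 152 that overlap one, 8 of 140 tested rose (5.71%) and 1 fell. In the overlapping group Y41D4B.18 shares exon sequence with C34H4.1 on the same strand, and Y37H9A.4 shares it with ndx-4 on the opposite strand. ndx-4 also rose (DESeq2 adjusted p = 0.0268), at 42.1 and 47.1 CPM in met-2 set-25, against 19.3 and 20.8 CPM in wild type.

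The mutant libraries differed from each other in several gene lists, and these values stand beside the calls. For 25 germline genes the median difference between rWQS045 and rWQS029 was 0.95 in log2(CPM + 0.1), and for hypodermis genes 0.77. For the 49 pseudogenes that rose the same difference had a median of 0.08 and ranged between -0.86 and 0.70. The test that chose these 49 favours members whose mutant libraries are alike, so this range is set in part by the choice. For all 586 members its median was -0.04, with extremes such as clec-237 at 4.09. Summed CPM of 12 neuron genes was 1040 and 875.5 in met-2 set-25 and 1556 and 1224 in wild type. That of 9 intestine genes (of 10 listed, opt-2 not being found) was 7670 and 5609 in met-2 set-25 and 5138 and 5588 in wild type. Summed CPM of 10 body wall muscle genes was 13229 and 16454 in met-2 set-25 and 12249 and 14839 in wild type, and that of 10 hypodermis genes 1869 and 7474 in met-2 set-25 and 3236 and 4304 in wild type. The part of germline or other tissue content in the pseudogene values was not tested.

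**Figure D5:**
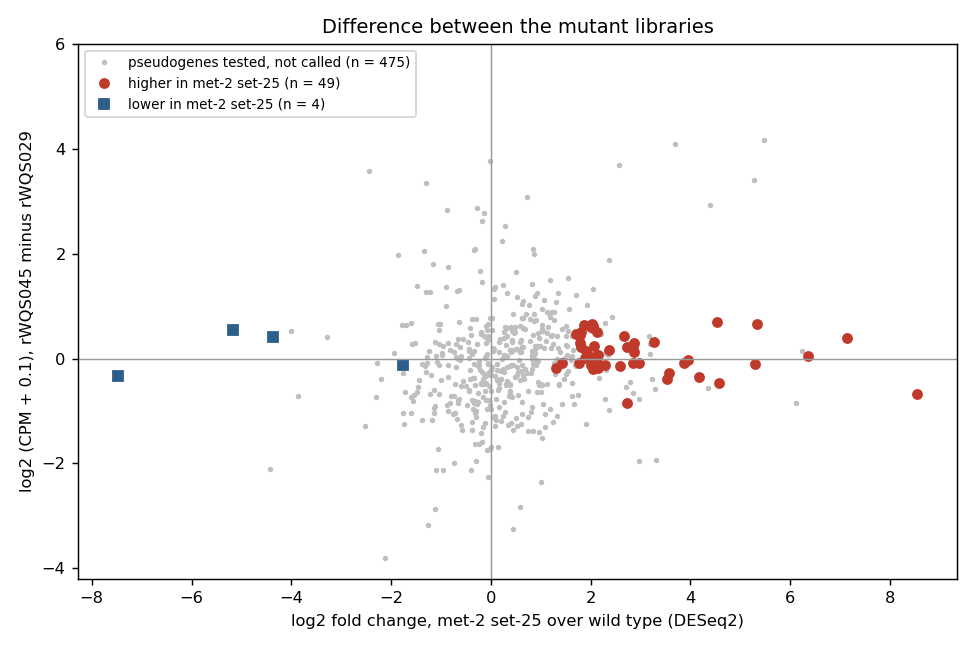
Difference between the mutant libraries, rWQS045 minus rWQS029 in log2(CPM + 0.1) (y axis), against the DESeq2 log2 fold change of met-2 set-25 over wild type (x axis), for the 528 pseudogenes given an adjusted p, with members that rose in red and those that fell in blue. The 49 red points lie between -0.86 and 0.70, a range set in part by the test that chose them.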

How the data were processed

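Poly(A) RNA of whole L3 larvae was sequenced from met-2 set-25 and wild type, 2 libraries each. The deposited values are the authors' raw counts, 1 column per library, not normalized and not pooled. Per the study's methods, TruSeq RNA libraries (a kit that does not mark strand) were aligned with STAR to ce10 with annotation WS235. Counting was by HTSeq according to the methods and by featureCounts according to the submitters' processing notes; versions and the handling of shared reads are not given in the sources used here. Total counts were 36581352 (rWQS029), 48636767 (rWQS045), 22849521 (rWQS019) and 56879896 (rWQS042). Count columns left out numbered 0. No source says whether the libraries within a genotype derive from separate cultures. The p-values therefore reflect the variation among these libraries alone, and that variation may be technical.

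Genes were matched by WormBase identifier to the Ensembl 115 annotation of WBcel235 (46449 genes matched, 299 did not), which gave biotypes, positions and overlaps. This annotation differs from the one used for counting, the count tables hold no coordinates, and no sequence was read. Symbols came from a list of gene names, failing that from the Ensembl annotation, and failing both from RefSeq locus tags. Of the 586 members, 581 had a RefSeq entry.

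All tests were two-sided, fitted over the whole table with genotype as the only term and adjusted by Benjamini-Hochberg at 0.05. The edgeR 4.0.16 quasi-likelihood test (legacy = FALSE, in R 4.3.3) used filterByExpr and TMM factors (1.08, 0.917, 1.01 and 1.00 in the order above). DESeq2 1.42.0, the tool of the study's methods, used its default filtering and size factors. CPM values are TMM-scaled. Fold changes are met-2 set-25 over wild type. Both fits were tested on simulated counts.

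Members named were those called by DESeq2 (at most 20 higher and 10 lower by adjusted p), the 5 with the highest mean CPM, those at the count minimum, and those absent in 1 genotype with at least 20 counts in each library of the other. The relatives by symbol, the members described by locus, the tRNA-named members, C43D7.3, ZK381.63, clec-23 and the remaining members outside this rule were named after their values were seen. Relatives were taken by symbol in place of a planned sequence search, which was not run. Members, gene lists and tests were chosen with earlier results of these data known. Alternatives were other scaling factors, filters, thresholds and tests (limma voom 3.58.1 among them), members without overlaps, and each library left out in turn, which leaves a genotype with a single library assumed to vary like the other genotype.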

Additional observations from a re-analysis of the deposited data

How the results depend on the processing

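For edgeR's count of 0 called pseudogenes, RLE, upper-quartile and library-size scaling, no filter, a mean of at least 5 CPM, the older form of the test and limma voom also gave 0, whereas the edgeR likelihood ratio test gave 63 and DESeq2 gave 53. Leaving out 1 library gave between 0 and 18 by edgeR, the 18 without rWQS029. For DESeq2, the 49 higher calls became 42 without independent filtering, 50 with TMM factors, 38 at an adjusted p under 0.01, 49 with a fold change over 1.5 and 41 among members that overlap no gene. Leaving out 1 library gave between 16 and 48 higher calls (48 without rWQS029, 30 without rWQS045, 16 without rWQS019, 20 without rWQS042) and between 2 and 11 lower calls (11, 9, 2 and 2 in the same order). The median log2 fold change of 0.33 was 0.27 with upper-quartile factors, 0.43 for members with at least 50 counts, 0.46 with at least 100, 0.35 with at least 20 counts in each genotype (chosen after seeing the data), and between 0.27 and 0.40 with 1 library left out. The 0.031 point difference in the share of counts was 0.0721 without F07H5.5, and between -0.00343 (without rWQS029) and 0.0654 with 1 library left out. All 24 called members named by the rule kept their direction under TMM factors, edgeR and each library left out. Their genotypes do not overlap in CPM, so a kept direction with 1 library left out follows from the choice of members. None of the 24 passed edgeR's adjusted threshold. The cause of these differences was not tested, except that leaving out a library reduces the samples. No paired analysis was possible because the count columns carry no replicate number.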
